A study of Urocitellus parryii with 44 samples.

Results

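Succinyl-CoA ligase is the enzyme of the tricarboxylic acid cycle that turns succinyl-CoA into succinate, and its transcripts were followed here in brown adipose tissue of the arctic ground squirrel (Urocitellus parryii) through its 3 subunit genes, Sucla2, Suclg1 and Suclg2. Every probe whose single gene symbol in the platform annotation was one of these names was taken, which gave 13 probes of the 25070 that carry a single symbol, or 3 genes of 11786. Sucla2 had 6 probes of 5 clones on all 4 membranes, Suclg1 had 5 probes of 4 clones on all 4 membranes, and Suclg2 had 2 probes on MA07 and MA10. The genes were selected on their limma differences between torpor and summer, which were already known, so these differences are given as descriptions, with standard errors and without p-values.

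The 5 animals of the winter group were in torpor, the hibernator's state of deeply lowered metabolism and body temperature, and the 3 animals of the summer group were active and taken in August. Each animal's total RNA carried a radioactive phosphorus label and was read on 4 membranes (MA07, MA08, MA10 and MA11) of 9600 mouse cDNA probes each, so squirrel transcripts were detected through mouse sequence. The RNA of torpid animal 5 and of summer animals 1 and 2 was split and measured in duplicate, giving 24 columns of torpid and 20 of summer animals, and duplicates were averaged to 1 value per animal. The labels give no age, sex or housing, and season and activity state cannot be told apart. Fewer cells of a type and less RNA per cell cannot be told apart in bulk tissue either.

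In the mitochondrial matrix, succinyl-CoA ligase pairs a shared alpha subunit, encoded by Suclg1, with either of a pair of beta subunits. The beta subunit of Sucla2 makes the enzyme form ATP from ADP, and that of Suclg2 makes it form GTP from GDP. This is the only step of the cycle that makes a nucleoside triphosphate directly, without the respiratory chain. In brown fat, whose mitochondria can run uncoupled to produce heat, it is a route to nucleotide triphosphates that does not pass through ATP synthase. In humans, loss of SUCLA2 or SUCLG1 also depletes mitochondrial DNA.

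Values are the authors' linear spot intensities divided by the median of their column, so that 1 is the middle probe of a membrane in that animal, and differences are torpor minus summer on the log2 scale. They compare animals for a given probe. Brightness also depends on the clone, so percentiles on a membrane and sums over markers describe signal and not amounts of transcript. The members had no empty cell in 143 measurements, so no value was missing or imputed. Over all membranes, empty cells took 0.70% to 9.41% of a column in torpid animals and 1.198% to 9.11% in summer animals.

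The ADP-forming beta subunit gene Sucla2 was higher in torpor by 15.5 to 20.5 times on 4 of its 6 probes, 1 on each membrane. Of these, the probes on MA10 and MA11 carried the same clone. The remaining Sucla2 probes, including the brightest, stood at 2.63 and 0.625 times the summer level. The alpha subunit gene Suclg1 had 3 probes between 2.16- and 2.98-fold higher and 2 near no difference, and the probes of the GDP-forming beta subunit gene Suclg2 stood at 0.728 and 1.15 times the summer level. Of the 13 probes, 4 passed an adjusted p of 0.05 in the limma fit over all probes, all of them Sucla2 and all higher. Over all 37848 tested probes 0.309% passed (98 higher, or 0.259%, and 19 lower, or 0.0502%; with cyclic loess between columns 46 and 19). Since this contrast chose the genes, nothing is read from that count.

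Sucla2 probe 7209 on MA11 measured 19.8, 13.3, 14.2, 16.8 and 13.8 in the 5 torpid animals, against 1.35, 0.816 and 0.383 in the 3 summer animals. The lowest torpid animal was far above the highest summer animal, and the torpid animals lay close together. On the log2 scale the means were 3.94 ± 0.24 in torpor (SD, n = 5) and -0.41 ± 0.92 in summer (SD, n = 3), a difference of 4.36 ± 0.35 (SE). Of all tested probes, this one had the largest positive difference.

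Sucla2 probe 7355 on MA08, of another clone, measured 64.8, 30.7, 32.4, 30.8 and 16.6 in torpid animals 1 to 5, against 3.40, 0.857 and 1.45 in summer animals 1 to 3. The groups stood well apart, with torpid animal 1 highest and torpid animal 5 lowest within the torpid group. The difference was 4.30 ± 0.46 (SE), rank 2 among the positive differences.

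Sucla2 probe 6844 on MA07, of yet another clone, measured 42.3, 37.2, 27.5, 32.8 and 19.6 in torpid animals, against 3.21, 1.16 and 1.17 in summer animals. Again all torpid animals were above all summer animals, torpid animal 5 was the lowest of its group and summer animal 1 the highest of its own. The difference was 4.24 ± 0.37 (SE), rank 3 among the positive differences.

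Sucla2 probe 6610 on MA10, which carries the same clone as probe 7209 on MA11, measured 9.72, 5.60, 10.8, 7.34 and 2.82 in torpid animals, against 1.73, 0.303 and 0.144 in summer animals. The groups did not overlap, but the gap between torpid animal 5 and summer animal 1 was small beside the spread of the summer group. The difference was 3.96 ± 0.64 (SE), rank 5. It no longer passed with the second duplicates alone or without torpid animal 2. The other 3 probes passed under each of the 18 alternatives in which their difference was followed, some of which left the difference itself unchanged.

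The remaining Sucla2 probes did not share this size of difference. Probe 5678 on MA07, the brightest of the gene, measured 48.6, 33.6, 55.9, 43.8 and 35.1 in torpid animals, against 22.9, 7.41 and 24.9 in summer animals. The groups did not overlap here either, at a difference of 1.40 ± 0.38 (SE), which fell to 0.46 with cyclic loess between columns and to 0.84 without summer animal 2. In torpor this probe stood above 99.6% of its membrane in every animal, and in summer above 98.0% to 99.5%. Probe 7612 on MA10 measured 0.470, 0.772, 0.862, 1.32 and 0.444 in torpid animals, against 0.702, 1.26 and 1.67 in summer animals. These ranges overlapped, and the difference was -0.68 ± 0.44 (SE). The 6 probes of the gene therefore spanned -0.68 to 4.36, with a median of 4.10.

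**Figure D1:**
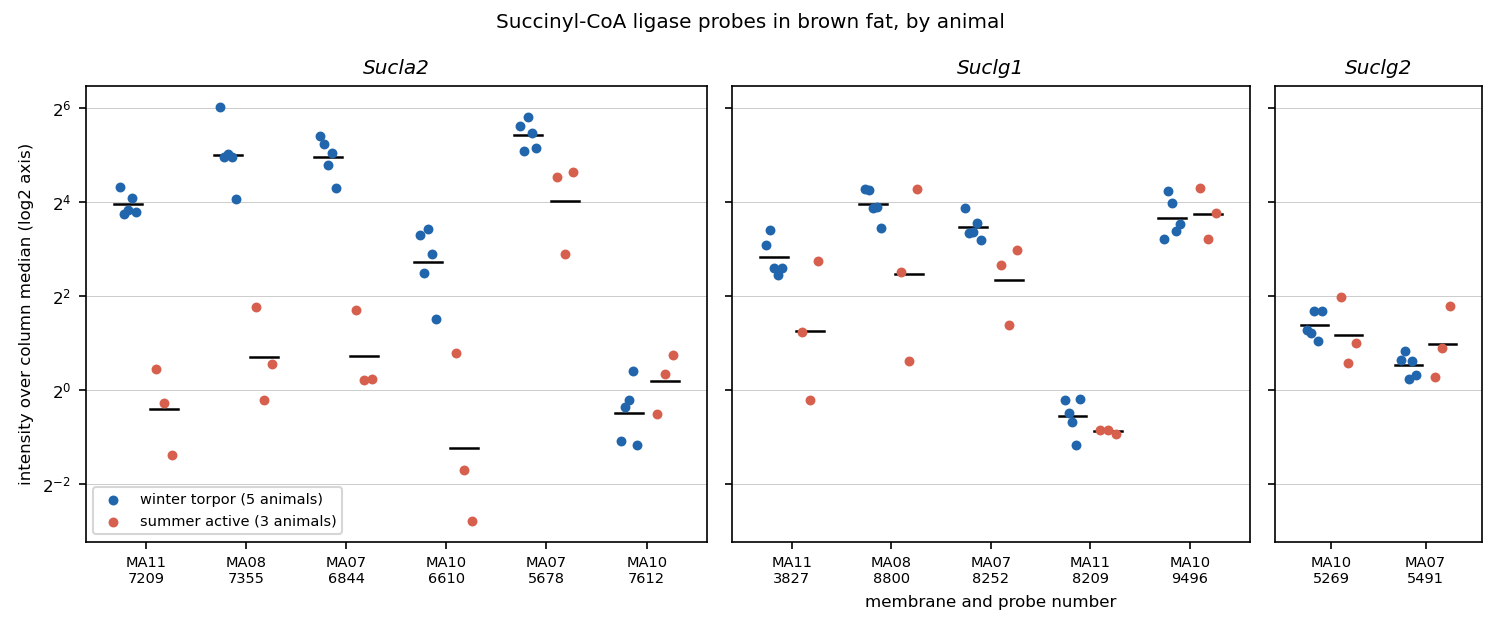
Intensity over the column median (log2 axis) of each Sucla2, Suclg1 and Suclg2 probe, with 1 point per animal, winter torpor in blue left of summer active in red, and black bars at the mean of the log2 values. In 5 of 6 Sucla2 probes all 5 torpid animals stand above the 3 summer animals. On the log2 axis the gap is smallest for probe 5678 on MA07 (33.6 against 24.9). In 3 Suclg1 probes the summer animals spread widely, from 1.53 to 19.2 on MA08, while the torpid animals lie together.

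Suclg1 encodes the alpha subunit that both forms of the enzyme need, and its probes did not share a value. Probe 8252 on MA07 measured 14.6, 9.999, 10.2, 11.6 and 9.03 in torpid animals, against 6.27, 2.61 and 7.85 in summer animals. The groups did not overlap, by a small gap, and the difference was 1.11 ± 0.33 (SE). With cyclic loess it was 0.49 and without summer animal 2 it was 0.64. It was the only Suclg1 probe with separate groups, whereas 5 of 6 Sucla2 probes and neither Suclg2 probe had them. In all 6 of these probes the torpid animals were the higher ones. Over all tested probes the groups did not overlap in 8.5%, with torpor higher in 4.37% and lower in 4.13%, and since the genes were selected on this contrast nothing is read from the count.

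The Suclg1 clone spotted on both MA08 and MA11 gave nearly the same picture on each. On MA08 (probe 8800) it measured 19.4, 18.9, 14.6, 14.8 and 10.8 in torpid animals, against 5.63, 1.53 and 19.2 in summer animals. On MA11 (probe 3827) it measured 8.40, 10.5, 6.04, 5.41 and 6.01 in torpid animals, against 2.33, 0.855 and 6.66 in summer animals. On both membranes summer animals 1 and 2 lay below every torpid animal, while summer animal 3 lay inside the torpid range.

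The differences of this clone were 1.49 ± 0.60 on MA08 and 1.57 ± 0.51 on MA11 (SE), and they turned on which summer animals were included. Without summer animal 3 they were 2.39 and 2.32, and both probes then passed, so that 6 of the 13 probes did. Without summer animal 2 they were 0.57 and 0.84. The standard deviation on the log2 scale was 0.34 and 0.40 among the torpid animals, against 1.82 and 1.48 among the summer animals.

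The other Suclg1 probes had differences nearer 0. Probe 9496 on MA10 measured 9.25, 18.6, 15.7, 10.3 and 11.5 in torpid animals, against 19.4, 9.25 and 13.4 in summer animals, a difference of -0.09 ± 0.40 (SE). Its sign depended on the duplicates, with 0.63 from the first and -0.81 from the second. Probe 8209 on MA11 was dim, above 28.5% of its membrane on average, and measured 0.861, 0.709, 0.617, 0.442 and 0.875 in torpid animals, against 0.552, 0.549 and 0.523 in summer animals, with a difference of 0.33 ± 0.26 (SE). Both probes overlapped between groups. The median over the 5 Suclg1 probes was 1.11.

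Suclg2, the GDP-forming beta subunit gene, was measured on MA07 and MA10 only. Probe 5491 on MA07 measured 1.54, 1.78, 1.17, 1.53 and 1.24 in torpid animals, against 1.21, 1.86 and 3.41 in summer animals, a difference of -0.46 ± 0.31 (SE), which was -0.06 without summer animal 3 and -0.81 without summer animal 1. Probe 5269 on MA10 measured 2.40, 2.30, 3.20, 2.06 and 3.19 in torpid animals, against 3.90, 1.48 and 1.98 in summer animals, a difference of 0.20 ± 0.40 (SE). The torpid animals lay within or close to the summer range on both. The signs of the probes were opposite, and that on MA10 turned negative in 2 of 18 alternatives.

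**Figure D2:**
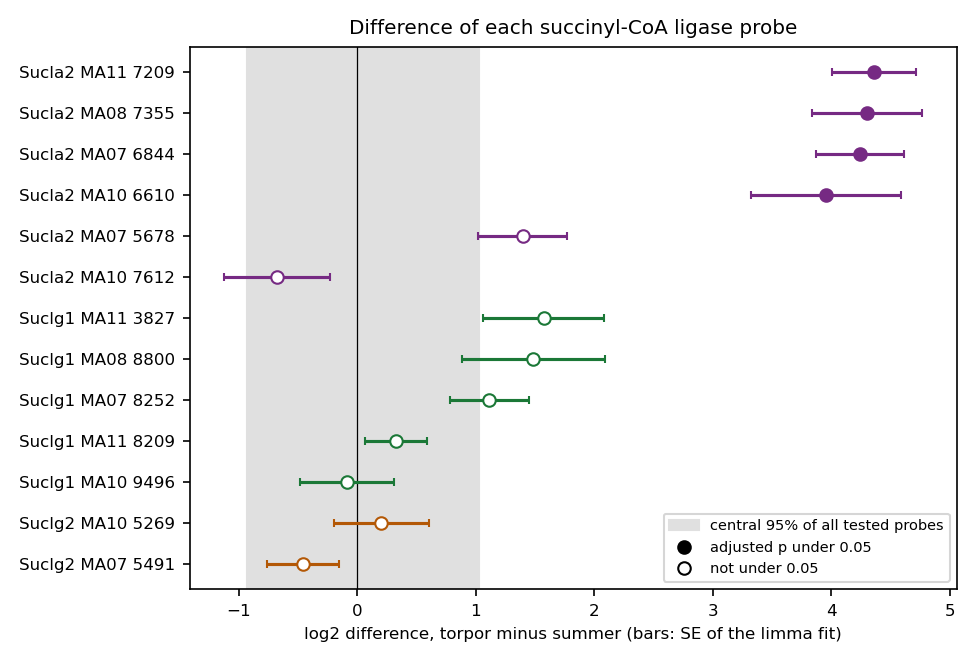
Log2 difference, torpor minus summer, of each of the 13 probes, with the standard error of the limma fit as bars. Filled points passed an adjusted p of 0.05, open points did not, and the grey band holds the central 95% of all tested probes, from -0.93 to 1.03. The 4 filled Sucla2 points lie between 3.96 and 4.36, apart from every other probe of the family.

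Relative to the other probes of the same membrane, the 4 strongly different Sucla2 probes stood in the upper part of the signal range in torpor, against a wide span of ranks in summer. Probe 7209 on MA11 lay above 95.4% to 96.8% of the membrane in torpid animals, against 11.9% to 61.3% in summer animals. Probe 6610 on MA10 lay above 76.1% to 94.7% in torpid animals, against 6.92% to 60.4% in summer animals. Probe 6844 on MA07 lay above 99.2% to 99.7% in torpid animals, against 57.8% to 90.3% in summer animals. Probe 7355 on MA08 lay above 99.0% to 99.8% in torpid animals, against 37.7% to 91.7% in summer animals. Ranks do not change when a whole column is multiplied by a factor.

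The order of the animals on these 4 probes was shared in part. Summer animal 1 was the highest of its group on 4 of 4, torpid animal 5 the lowest of its group on 3 of 4 and torpid animal 1 the highest on 3 of 4. The lowest summer animal was animal 2 on 2 probes and animal 3 on the other 2, and torpid animal 2 ranged from second highest on probe 6844 to lowest on probe 7209. Among the 3 Suclg1 probes with positive differences above 1, summer animal 3 was the highest of its group on 3 of 3 and summer animal 2 the lowest on 3 of 3. Sucla2 probe 5678 had the same summer order, and summer animal 3 was also highest on Sucla2 probe 7612. The spread was larger among summer than among torpid animals on 11 of the 13 probes, compared with 50.9% of all tested probes.

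Measurement error of the family was judged from the split RNAs. Duplicates of torpid animal 5 differed by 1.23-fold in the median over the 13 probes, and at most by 1.69-fold, where all probes had a median of 1.25-fold. In summer animals 1 and 2 the medians were 1.77- and 1.51-fold for the 13 probes and 1.35- and 1.36-fold for all probes. All probes of MA10 had medians of 1.83- and 1.71-fold in these animals, against 1.25- to 1.32-fold on the other membranes. In each of these animals 8 of the 13 probes exceeded the median of their own membrane. The largest gaps were on MA10, 3.41-fold for Sucla2 probe 6610 in summer animal 1 and 4.29-fold for Suclg1 probe 9496 in summer animal 2, and on MA08, 3.80-fold for Suclg1 probe 8800 in summer animal 2. For Sucla2 on MA11 the duplicates differed by 1.07- to 1.18-fold in the 3 animals.

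The probes numbered next to Sucla2 did not share its difference. Within 12 numbers on either side, the tested neighbours had median differences of -0.08 on MA07 (23 neighbours of probe 6844), -0.23 on MA08 (24 neighbours of probe 7355), -0.07 on MA10 (22 neighbours of probe 6610) and -0.0036 on MA11 (23 neighbours of probe 7209). The largest difference among these neighbours was 1.95, on MA08 for a Ppp4c probe, and it was the only neighbour of these 4 probes to pass. Around Suclg1 probe 9496 on MA10 the 24 neighbours had a median of -0.73, whereas the median over all tested probes was near 0. Neighbours were taken by probe number, which was not matched to a position on the membrane. Whether they bear on the value of probe 9496 was not tested.

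**Figure D3:**
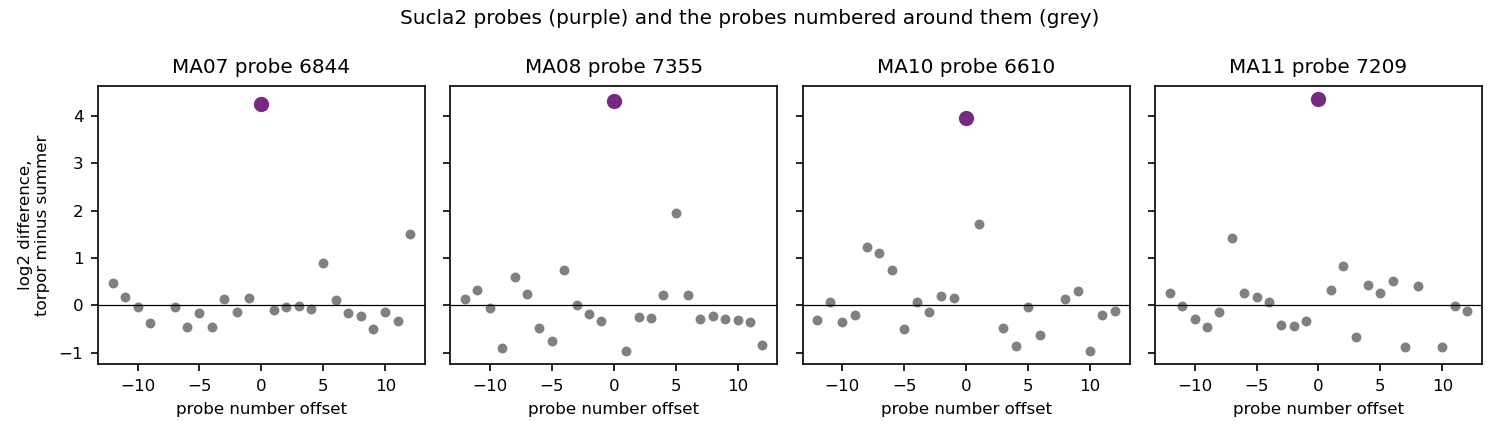
Log2 difference, torpor minus summer, of the 4 Sucla2 probes that passed (purple) and of the tested probes within 12 probe numbers of each (grey), with 1 panel per membrane. Each Sucla2 probe stands above all of its neighbours, whose highest value is 1.95 on MA08.

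Of 15 other genes of the tricarboxylic acid cycle, 13 were measured. With each gene represented by its brightest probe, 2 rose, 0 fell and 11 did not pass, with a median difference of 0.41. By the same rule Sucla2 would stand at 1.40, Suclg1 at 1.11 and Suclg2 at -0.46, and none of these probes passed. Counting every probe of the 13 genes, 4 of 42 passed, all higher, against 0.309% of all tested probes. The median over all tested probes was near 0. Dld, the dihydrolipoamide dehydrogenase subunit of the 2-oxoglutarate dehydrogenase complex that delivers succinyl-CoA, rose by 3.11 ± 0.45 (SE, limma adjusted p = 0.021). It measured 13.2, 16.2, 9.48, 13.4 and 4.67 in torpid animals, against 2.51, 0.935 and 0.758 in summer animals. Dlst, the succinyltransferase of the same complex, rose by 2.30 ± 0.35 (limma adjusted p = 0.026), and the other Dlst probes had lower values, down to -0.09. Ogdh, the first component of that complex, ranged from -0.53 to 0.30 over 5 probes and did not pass.

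Counting any probe of a gene, Idh3a, a catalytic subunit of NAD-dependent isocitrate dehydrogenase, also passed, by an MA07 probe at 1.68 ± 0.28 (limma adjusted p = 0.046). Its brightest probe stood at 2.18 (limma adjusted p = 0.0501) and its MA10 probe at 0.36. The other measured enzymes of the cycle did not pass, by any probe. By the brightest probe, citrate synthase (Cs) was at 0.41, the isocitrate dehydrogenase genes Idh3b, Idh3g and Idh2 were at 0.32, 0.35 and 0.36, the succinate dehydrogenase subunits Sdha, Sdhb and Sdhd were at 0.81, -0.18 and 0.42, fumarase (Fh1) was at 0.57 and malate dehydrogenase (Mdh2) at 0.04.

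**Figure D4:**
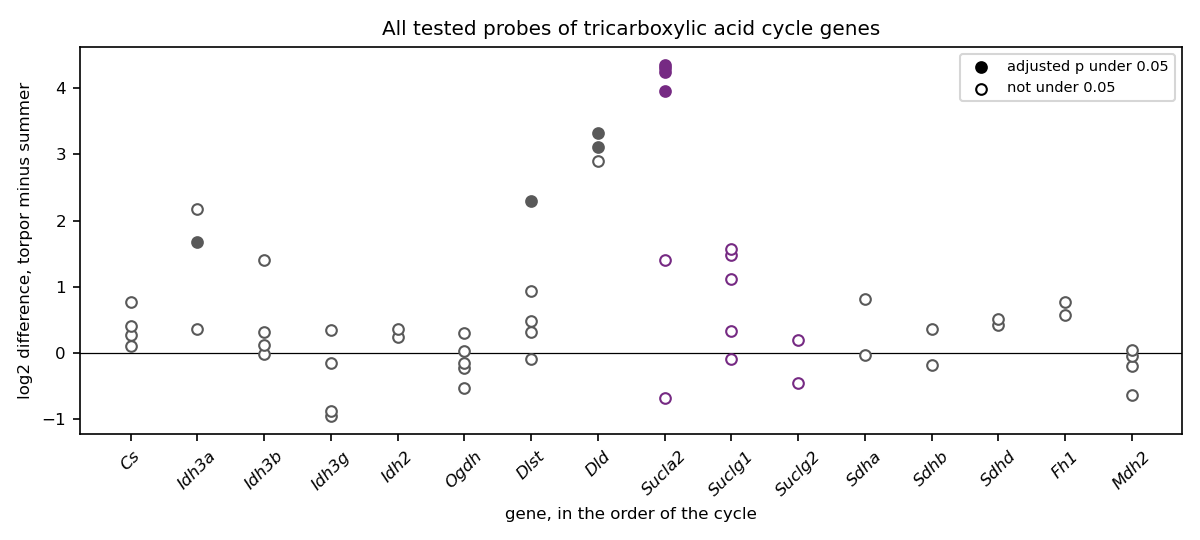
Log2 difference, torpor minus summer, of every tested probe of 16 tricarboxylic acid cycle genes in the order of the cycle, with filled points for an adjusted p under 0.05 and the 3 ligase genes in purple. Sucla2 has 4 filled points between 3.96 and 4.36, and besides it Dld has 2 filled points and Dlst and Idh3a 1 each.

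Genes that make or use succinyl-CoA outside the cycle went both ways. Of 15 listed genes for propionate breakdown, ketone use, haem synthesis and desuccinylation 12 were measured, and by the brightest probe 0 passed in either direction, 6 had a positive difference and the median was 0.05. The exception by another probe was Mmut, methylmalonyl-CoA mutase, which makes succinyl-CoA from propionate-derived carbon. Its MA11 probe measured 6.95, 4.14, 4.84, 6.16 and 3.88 in torpid animals, against 1.02, 0.966 and 1.35 in summer animals. That probe rose by 2.20 ± 0.26 (limma adjusted p = 0.0081), while its brightest probe, on MA08, stood at 1.23 ± 0.29 (limma adjusted p = 0.12) and its dim MA10 probe at -0.43, from 3 torpid and 2 summer animals because the other cells were empty. Pccb, a propionyl-CoA carboxylase subunit, was at 0.86, Oxct1, the succinyl-CoA transferase of ketone use, at 0.60 Mmaa, which serves the cobalamin cofactor of methylmalonyl-CoA mutase, at -0.61 and Alas1, which starts haem synthesis from succinyl-CoA, at -0.01, and none of these passed.

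Another list held genes of mitochondrial nucleotide handling and mitochondrial DNA upkeep, 20 genes of which 19 were measured. By any probe 0 passed in either direction, and the median by the brightest probe was -0.09. At an unadjusted p under 0.05 limma had 4379 of all 37848 tested probes. Nme4, the mitochondrial nucleoside diphosphate kinase, which passes phosphate between nucleotides, had the largest value at 1.94 ± 0.54 (SE). It measured 47.6, 57.3, 37.2, 58.3 and 41.8 in torpid animals, against 8.97, 4.94 and 43.0 in summer animals, so that summer animal 3 lay inside the torpid range, and its other probe gave 1.84. Ak4, a mitochondrial adenylate kinase, stood at 1.59 ± 0.48 (SE). Summer animal 1, at 15.2, lay inside the torpid range of 12.9 to 27.0 on this Ak4 probe, and the other Ak4 probe gave -0.21. By the brightest probe, the mitochondrial DNA maintenance genes Tfam, Twnk and Mpv17 were at -0.09, -0.16 and -0.26. Tk2 and Dguok were at -0.10 and -0.03, and Polg2 was at 0.51. Polg and Rrm2b were at -0.89 and -0.45, on dim probes with mean signal percentiles of 19.4 and 20.6.

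Over the 8 animals, the genes with a probe most like the mean pattern of the 4 Sucla2 probes were, from the nearest, Dld, Cycs, Ghitm, Laptm4a, Taf1d and Sltm. Likeness was the root mean square difference on the log2 scale between profiles centred on their own mean, among 11890 probes with a single symbol, values in all animals and a mean signal above the middle of the membrane. It was 0.59 for the Dld probe on MA11, 0.75 for Cycs (cytochrome c) on MA08, 0.78 for Ghitm, 0.85 for Laptm4a, 0.86 for Taf1d and 0.88 for Sltm, where the median probe had 2.14. The measure is set largely by the torpor difference, which also chose the genes: a flat profile has 2.14, and the 6 named probes differed by 2.71 to 3.33. The remaining Sucla2 probes, 5678 and 7612, lay at 1.52 and 2.57, the Suclg1 probes at 1.64 to 2.18 and the Suclg2 probes at 2.02 and 2.45.

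Of the tissue's own markers, Ucp1, Adipoq, Fabp4 and Plin1 had no single-symbol probe in the annotation used here, and of 8 brown adipocyte markers 5 were measured, at a median signal percentile of 75.4. Cidea, a lipid droplet protein of brown fat, stood at -0.31, Dio2 at -0.58, Ppargc1a at -0.76, Elovl3 at -0.70 and Fabp3 at 1.99. The Dio2 probe was dim, at a mean signal percentile of 10.5, and the other Fabp3 probe stood at 0.28. Of these 5 markers by the brightest probe, 1 had a positive difference, the median was -0.58 and 0 passed. The summed level of 6 measured skeletal muscle markers of 14 was 82.6 to 101 in torpid animals, against 135 to 162 in summer animals, and 1 of the 6 had a positive difference. Tnnc2 alone made up 64.9 to 88.6 of this sum in torpid animals, against 126 to 152 in summer animals. The other 5 together came to 8.77 to 17.7 in torpid animals, against 9.26 to 10.4 in summer animals, which overlapped. Their part in the Sucla2 and Suclg1 values was not tested. Marker sums of immune cells, nerve, fibroblasts, blood and adipocytes overlapped between the groups, and those of endothelium, at 4.97 to 9.33 in torpid and 4.17 to 5.88 in summer animals, overlapped too. No marker of any of these lists passed.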

How the data were processed

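Linear intensity per spot is what the authors deposited. Its median is 1 in each column once empty cells are placed at the bottom, so the columns had been scaled to their medians, as found from the values. For image analysis and background treatment the record used here gives no detail, and no coordinates or sequences are printed. Values were taken to log2 with empty cells as missing, and duplicates of a split RNA were averaged. Each membrane was fitted whole with limma (version 3.58.1, R 4.3.3; lmFit, eBayes; torpor minus summer, two-sided). A probe was tested where 2 or more animals per group had a value, with Benjamini-Hochberg adjustment over 37848 tested probes and a threshold of 0.05. Precision is limited by the number of animals, 5 torpid and 3 summer, and the median SE was 0.29. The fit was tested on simulated data. Tables and figures were made in Python 3.11.15 with pandas 2.3.3 and matplotlib 3.10.9.

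Members, gene lists and alternatives were chosen with earlier results of these data known. Symbols come from the platform annotation of the mouse probes. A listed gene was represented by its probe with the highest mean signal percentile. By rule, the text names each listed gene with a passing probe, the pair of each list with the largest absolute differences, Ucp1, Cidea, Adipoq, Fabp4 and Plin1 among the fat markers, and the 6 genes nearest in pattern. The other list genes with values, such as Ogdh, Cs, Mmaa, Tfam, Tnnc2 and Fabp3, were named after their values were seen. Alternatives covered scaling, a floor, dim probes, the variance model, duplicates, the adjustment, a replicate block and each animal left out. Requiring values in all animals was added after seeing the data. Equal animal numbers name different animals in the groups and were not treated as pairs.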

Additional observations from a re-analysis of the deposited data

Results flagged for a closer look

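Of 33 torpid profiles of named probes checked, 1 had an animal whose gap to its neighbour was large for the range of the group: torpid animal 3 was low on a dim Cidea probe on MA11, with a ratio of gap to range of 0.712 against a critical value of 0.71. Chance gives such a gap in about 5% of groups. None of the 13 succinyl-CoA ligase probes had one.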

How the results depend on the processing

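The number of passing probes over all membranes moved with the animals, 17 to 347 when each was left out: 347 without summer animal 1, and 45, 17, 50 and 60 without torpid animals 1, 2, 3 and 4. It was 65 with cyclic loess, 38 and 176 with the second or first duplicates alone, 199 without probes under the 20th signal percentile and 219 with an intensity trend, against 117 as reported. Of the 13 ligase probes 3 to 6 passed with 1 animal left out, 3 with the second duplicates and 4 in the other settings. Leaving out 1 animal gave medians of 3.53 to 4.76 for Sucla2, 0.57 to 1.43 for Suclg1 and -0.30 to 0.02 for Suclg2. With cyclic loess the Suclg1 median was 0.49, and the cause was not tested. Of 234 probe differences under the alternatives 38 were identical to the reported ones, mostly where the setting cannot alter a difference. Of the other 196, 191 moved by less than the spread between animals, 5 by more, and no passing probe changed sign. With the replicate block, 32 probes passed in all and 4 of the 13. Deviations of equally numbered animals correlated at 0.02, 0.0073 and 0.0076 over 34505 probes. No shared deviation was seen, which by itself does not settle whether animals were paired.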

Other observations

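Summer animal 3 was the highest of the summer group on Suclg1 probes 8252, 8800 and 3827 and on both Nme4 probes (43.0 and 39.8, where summer animal 1 had 8.97 and 9.07 and summer animal 2 had 4.94 and 4.64), while on Sucla2 the same RNA was the lowest of the 3 on probes 6610 and 7209, in the middle on 6844 and 7355, and the highest on 5678 and 7612. This was noticed after the values were seen, and it is given without a test.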
